A study of Mus musculus with 18 samples.

Results

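The collagen gene family was followed through a primed-to-naive transition of mouse pluripotent stem cells. Members were the rows of the deposited count table whose symbol has the form Col, a type number, a and a chain number. They were 44 of 25239 symbols, and this rule reads names only. RNA was sequenced from 18 libraries, 3 in each of 6 groups. The groups were EpiSC, epiblast stem cells labelled as primed stem cells and taken as day 0; D3, D5 and D8, labelled transient, at days 3, 5 and 8; rES, labelled naive stem cells; and ESC, embryonic stem cells labelled mESC. The labels give mouse embryo as the tissue of all 6 groups and name no genotype, strain, medium, feeder layer or agent. They do not say whether the 3 libraries of a group came from separate cultures, so each p-value reflects library-to-library spread, which may be technical.

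Collagens are secreted or membrane proteins built from 3 alpha chains wound into a triple helix, and each Col gene encodes 1 chain. Fibrillar collagens such as types I, III and V assemble into the fibres of connective tissue. Type IV collagen forms the sheet-like network of basement membranes, and in the early embryo it is made in quantity by parietal endoderm. FACIT collagens coat fibrils, beaded-filament collagens (type VI) form fine filaments around cells, and Col18a1 encodes a heparan sulfate proteoglycan core protein of basement membranes whose cleaved end is endostatin.

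Chains of type IV collagen are encoded by pairs of genes that lie head to head on opposite strands, and the levels of the pair Col4a1 and Col4a2 were among the highest of the family, while Col4a3 and Col4a4 stayed under 1 CPM. In GENCODE vM21 on GRCm38, Col4a1 ends at 11312826 and Col4a2 starts at 11312805 on chromosome 8, so that their first exons overlap by 22 bases. Col4a4 and Col4a3 lie 72 bases apart on chromosome 1, and Col4a6 and Col4a5 lie 1309 bases apart on chromosome X. The promoter windows below run from 250 bases before to 50 after the RefSeq start on GRCm38.p6 and are shown so that the shared and the separate pair can be compared. Col4a1 is chr8:11312777-11313076 on the minus strand and Col4a2 is chr8:11312555-11312854 on the plus strand. Capitals in both mark the 78 bases that the windows share, read on opposite strands.
Col4a1: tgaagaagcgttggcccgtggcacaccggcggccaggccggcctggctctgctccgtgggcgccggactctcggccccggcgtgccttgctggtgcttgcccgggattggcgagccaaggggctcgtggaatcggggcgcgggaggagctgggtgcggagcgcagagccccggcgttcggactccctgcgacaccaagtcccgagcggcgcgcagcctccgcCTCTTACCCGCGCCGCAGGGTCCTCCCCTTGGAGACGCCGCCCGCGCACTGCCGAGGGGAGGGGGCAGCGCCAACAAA
Col4a2: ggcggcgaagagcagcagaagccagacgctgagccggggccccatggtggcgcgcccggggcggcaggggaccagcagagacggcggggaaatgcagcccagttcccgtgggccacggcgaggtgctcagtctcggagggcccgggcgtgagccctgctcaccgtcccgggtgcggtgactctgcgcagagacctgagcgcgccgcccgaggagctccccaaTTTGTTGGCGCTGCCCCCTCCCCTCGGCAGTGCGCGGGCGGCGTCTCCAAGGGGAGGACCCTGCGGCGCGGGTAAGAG
The windows of the X-linked pair, Col4a5 at chrX:141475169-141475468 on the plus strand and Col4a6 at chrX:141474027-141474326 on the minus strand, share no base. Capitals here mark matches to the motifs described next.
Col4a5: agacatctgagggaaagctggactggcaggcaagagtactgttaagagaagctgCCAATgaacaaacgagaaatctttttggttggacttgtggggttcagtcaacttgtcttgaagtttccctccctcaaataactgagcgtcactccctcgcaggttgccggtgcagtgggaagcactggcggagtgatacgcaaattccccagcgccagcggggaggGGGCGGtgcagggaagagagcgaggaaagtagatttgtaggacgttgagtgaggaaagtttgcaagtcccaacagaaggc
Col4a6: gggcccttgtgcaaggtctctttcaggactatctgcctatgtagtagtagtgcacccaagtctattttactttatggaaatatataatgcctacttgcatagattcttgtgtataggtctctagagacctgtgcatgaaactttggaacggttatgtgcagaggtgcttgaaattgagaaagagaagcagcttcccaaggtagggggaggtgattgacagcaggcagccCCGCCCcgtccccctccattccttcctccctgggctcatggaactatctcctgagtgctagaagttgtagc

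Promoter windows were at hand for 35 of the 44 members and were searched on both strands for 3 motifs. The GC box was searched as GGGCGG, the second motif as CCAAT and the TATA box as TATAAA. No motif contains another. Some members have more than 1 start, so the 35 members have 38 windows, and shares are given over windows. A GC box was present in 23 of the 38 (60.5%), against 35.7% of all 32851 windows. CCAAT was present in 13 (34.2%), against 37.4% of all windows, and TATAAA in 5 (13.2%), against 13.6%. The Col4a2 window held 3 GC boxes and the Col4a1 window 1, and each held 1 CCAAT. Neither these nor the X-linked pair held TATAAA. Col4a5 held 1 GC box and 1 CCAAT, and Col4a6 held 1 GC box. These matches describe letters in a window and say nothing of factor binding.

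Total counts were 58.4 to 101.6 M per library (M, megacounts), the highest being D8 replicate 2. Levels are given in CPM, counts scaled to the effective library size after TMM scaling. Ratios and shares of different genes are given as RPKM, which is CPM per kilobase of annotated exon. Sums of CPM, thresholds in CPM and the order of members below 5 CPM were not scaled by exon length. Of the 44 members, 25 reached a group mean of 5 CPM, 8 peaked between 1 and 5 CPM, and 11 stayed under 1 CPM in every group. The labelled states matched their markers: 6 naive markers summed to 56.7 to 63.2 CPM in EpiSC and 3773 to 4188 CPM in rES and ESC, and 6 primed markers to 1946 to 2125 CPM in EpiSC and 152 to 241 CPM in rES and ESC. A filter on low counts kept 42 members for testing. Col10a1 and Col19a1, both under 1 CPM, were not tested. A count of 12, used as the floor because low counts in the table bunch at multiples of 4, corresponds to 0.161 to 0.197 CPM.

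The transient groups held the highest collagen levels. Summed over the family, EpiSC libraries had 577, 582 and 728 CPM, D3 libraries 2203, 2325 and 2970, D5 libraries 2142, 2117 and 2237, and D8 libraries 3102, 3707 and 3087. The rES libraries had 228, 219 and 220 CPM and the ESC libraries 350, 409 and 365 CPM. The 9 transient libraries therefore all lay above the 9 others, and rES lay lowest without overlap with ESC. Replicate 3 was the highest EpiSC and the highest D3 library, and D8 replicate 2 the highest of all. The group mean was highest in D3, D5 or D8 for 37 of 44 members. The share of all genes with their highest mean in these groups was not counted. Of the 25 members at 5 CPM or more, 22 had their highest mean there. Some of these reached 5 CPM only in such a group, so the 22 of 25 adds no support to the 37 of 44. The others were Col18a1, highest in EpiSC, Col9a2, highest in rES, and Col11a1, highest in ESC. In bulk RNA, more cells of a collagen-producing type and more RNA per cell cannot be told apart.

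**Figure D1:**
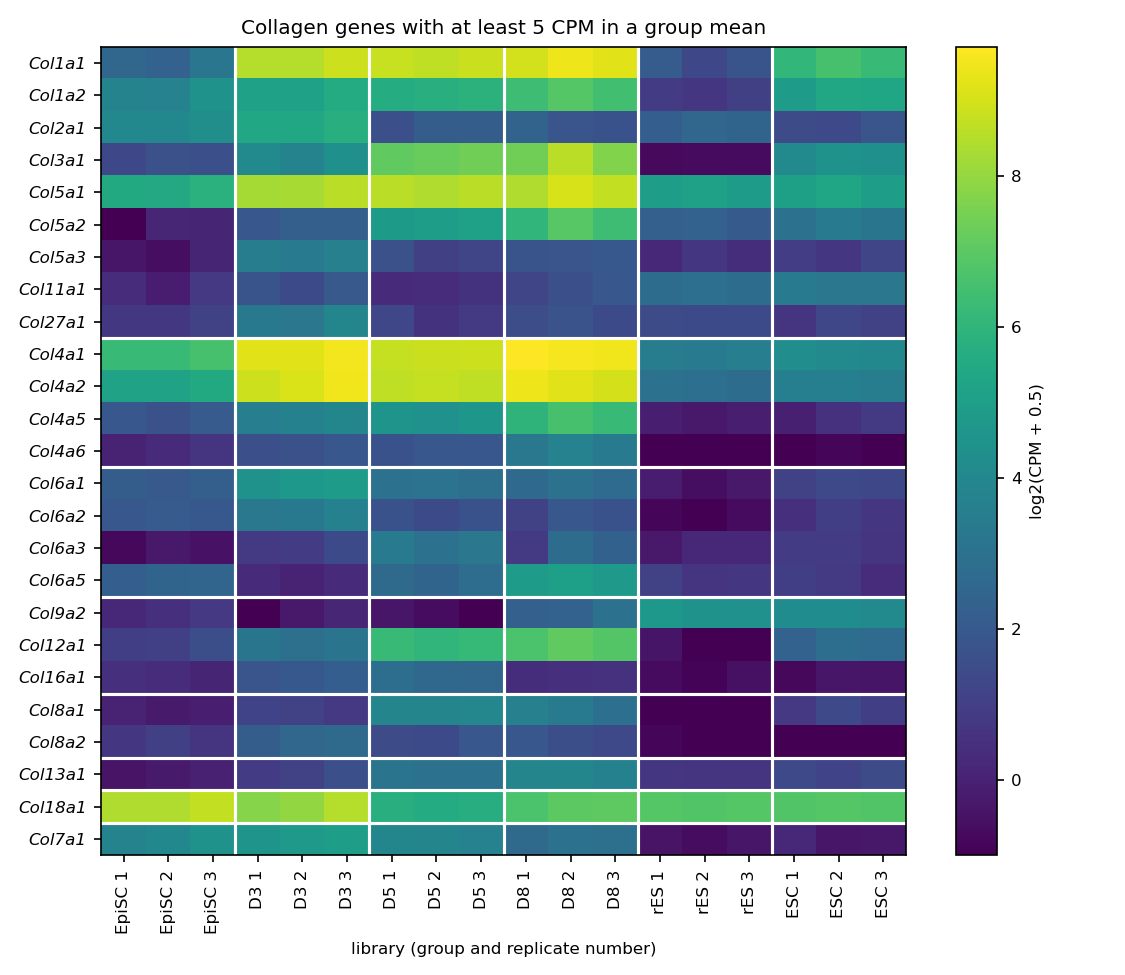
Log2(CPM + 0.5) of the 25 collagen genes with a group mean of at least 5 CPM (rows, ordered by subgroup, white lines between subgroups) in each of 18 libraries (columns, 3 per group). Most rows are brightest in D3, D5 or D8, while Col18a1 is brightest in EpiSC and Col9a2 in rES and ESC.

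Each comparison was tested with edgeR's quasi-likelihood test, all 18 libraries in 1 fit, and a gene was called at an adjusted p under 0.05 over all 17545 genes tested. At D3, 29 of 42 members were higher than in EpiSC and 3 lower, against 34% and 30.1% of all genes. The median log2 difference was 1.81 over the members and 0.00 over all genes. At D5, 22 members were higher and 4 lower (37.6% and 34.2% of all genes), with a median of 1.37 beside 0.02. At D8, 29 were higher and 3 lower (42.3% and 34.4% of all genes), with a median of 2.56 beside 0.18. Without D8 replicate 2, 28 were higher and 3 lower. In rES, 10 members were higher and 21 lower than in EpiSC (31.8% and 37.5% of all genes), and the median was -0.86 beside -0.09. Without rES replicate 2, 6 were called higher. In ESC, 15 were higher and 18 lower (31.2% and 36% of all genes), with a median of -0.39 beside -0.07, so both ESC counts lay near the background. These 5 comparisons share the EpiSC libraries. The 3 members lower at D3 became 1, Col6a5, when D3 replicate 1, D3 replicate 2 or EpiSC replicate 3 was left out.

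**Figure D2:**
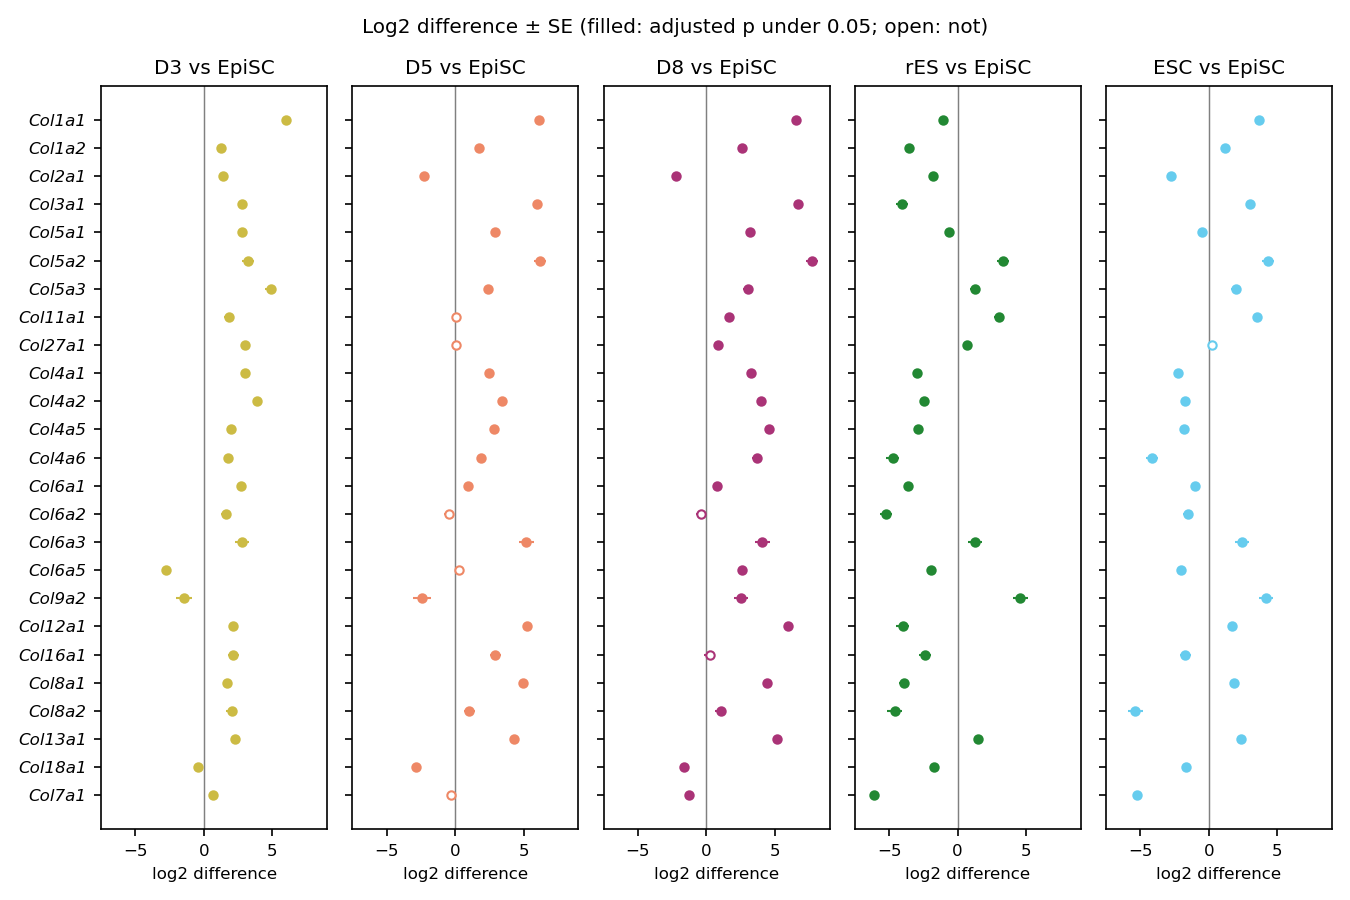
Log2 difference from EpiSC (horizontal axis, with SE) for the 25 collagen genes with a group mean of at least 5 CPM, 1 panel per group. Filled points passed an adjusted p under 0.05 and open points did not; most points lie to the right of 0 in the D3, D5 and D8 panels, and Col4a1, Col4a2 and Col7a1 lie to the left in the rES and ESC panels.

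Between neighbouring time points, from D3 to D5, 10 members were higher and 14 lower (29.9% and 29.5% of all genes), shares near the background. From D5 to D8, 15 were higher and 3 lower (24.9% and 22.1% of all genes). From D8 to rES, 26 were lower and 3 higher (38.3% and 32.6% of all genes), with a median of -2.72 beside -0.09 over all genes. Between the naive groups, 12 members were lower in rES than in ESC and 4 higher (17.9% and 15.6% of all genes).

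Composition changed along with the sum. Col18a1 made up 58.4% ± 1.3 (SD, n = 3) of the summed collagen RPKM in EpiSC, 10.6% ± 1.2 at D3, 2.26% ± 0.10 at D5, 3.55% ± 0.51 at D8, 45.9% ± 1.5 in rES and 27.3% ± 1.3 in ESC. Type IV chains made up 20.3% ± 0.33 in EpiSC, 50.1% ± 0.39 at D3, 42.2% ± 1.5 at D5, 45.0% ± 6.5 at D8, 7.47% ± 0.22 in rES and 7.24% ± 0.73 in ESC. Fibrillar chains made up 14.9% ± 0.93 in EpiSC, 34.8% ± 1.0 at D3, 49.5% ± 1.4 at D5, 46.0% ± 6.2 at D8, 20.2% ± 1.4 in rES and 50.5% ± 3.0 in ESC. The naive groups thus differed from each other in shares. By share, rES had more Col18a1 and FACIT chains (23.3% ± 1.8 FACIT, against 11.1% ± 0.59 in ESC), and ESC had more fibrillar chains. Col18a1 itself was at a mean of 115 CPM in rES and 114 CPM in ESC, so its larger share in rES came with a lower collagen sum there.

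**Figure D3:**
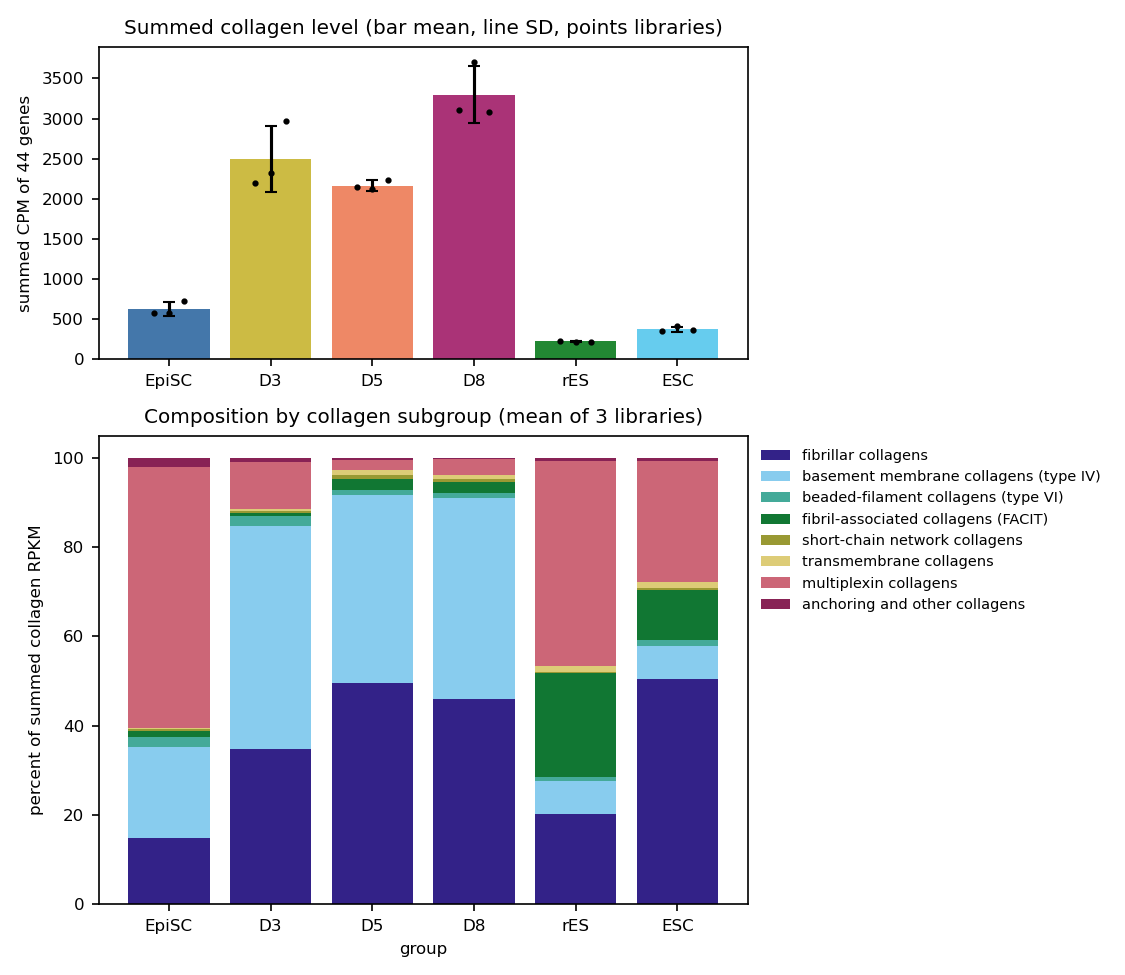
Top, summed CPM of the 44 collagen genes by group (bars, mean; lines, SD; points, 3 libraries), with D8 highest and rES lowest. Bottom, mean percent of the summed collagen RPKM taken by each of 8 subgroups, with Col18a1's subgroup (multiplexins) largest in EpiSC and rES and type IV plus fibrillar chains largest in D3, D5 and D8.

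Among the 11 fibrillar genes, 10 rose and none fell from EpiSC to D3 (34% and 30.1% of all genes), with a median of 2.80. By D8, 9 were higher and 1 lower than in EpiSC (42.3% and 34.4% of all genes), with a median of 3.04. In rES 4 were higher and 6 lower (31.8% and 37.5% of all genes), with a median of -0.62, and the count higher was near the background. In ESC 7 were higher and 3 lower (31.2% and 36% of all genes), with a median of 1.97. Col1a1, the main chain of type I collagen of bone, skin and tendon, was at 5.31, 4.67 and 8.86 CPM in EpiSC and at 365, 369 and 479 CPM at D3. It stayed at 455, 412 and 458 CPM at D5 and 512, 698 and 605 CPM at D8. In rES it was at 3.86, 1.98 and 2.92 CPM, and in ESC at 68.6, 95.8 and 73.4 CPM. The transient libraries all exceeded the others, and ESC stood between them and the primed and rES libraries. The log2 difference from EpiSC was 6.0 ± 0.27 (SE; edgeR adjusted p = 8.24e-12) at D3, and rES lay below ESC by a log2 difference of -4.74 ± 0.26 (edgeR adjusted p = 2.64e-09).

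Col1a2, which supplies the second chain of type I collagen, moved much less at D3. It was at 13.3, 13.0 and 21.8 CPM in EpiSC and 34.7, 34.9 and 47.1 CPM at D3, a log2 difference of 1.28 ± 0.20 (edgeR adjusted p = 1.67e-05). It then rose to 49.7, 54.0 and 57.9 CPM at D5 and 82.7, 118 and 87.3 CPM at D8, and was at 1.11 to 1.55 CPM in rES and 29.3 to 41.0 CPM in ESC. The D5 over D3 difference of 0.47 ± 0.19 (edgeR adjusted p = 0.044) was lost when any 1 of D3 replicates 1 and 2 or D5 replicates 1 to 3 was left out (adjusted p 0.0527 to 0.147).

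The unequal moves changed the ratio of the 2 type I chains. The Col1a1 to Col1a2 RPKM ratio was 0.361, 0.325 and 0.367 in the EpiSC libraries, so Col1a2 was the more abundant per kilobase, and 9.50, 9.52 and 9.17 at D3. It was 8.25, 6.88 and 7.14 at D5, 5.59, 5.34 and 6.25 at D8, 2.52, 1.62 and 1.71 in rES, and 2.11, 2.11 and 1.69 in ESC. The EpiSC and D3 ratios did not overlap, with an exact two-sided permutation p of 0.1, the smallest that 3 against 3 allows. The same holds for each of 7 ratio comparisons run, so none can pass 0.05. In the type I trimer Col1a1 and Col1a2 are most often combined with more of the former, and Col1a1 chains can also form trimers alone.

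Col3a1, the type III chain of elastic soft tissues, rose later than Col1a1. It was at 1.99 to 2.65 CPM in EpiSC and 16.8, 13.4 and 20.0 CPM at D3, and reached 137, 150 and 167 CPM at D5 and 169, 387 and 207 CPM at D8. The D5 over D3 log2 difference was 3.17 ± 0.24 (edgeR adjusted p = 8.5e-09), where that of Col1a1 was 0.13 ± 0.21 (adjusted p = 0.644). The D8 over D5 difference of 0.75 ± 0.22 (edgeR adjusted p = 0.0108) rested on D8 replicate 2: without it the difference was 0.32 (adjusted p = 0.0936). In rES, Col3a1 was at 0.111 to 0.122 CPM, under the floor of 0.191 CPM, while ESC had 17.1, 22.1 and 20.0 CPM.

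Type V chains, which nucleate type I fibrils, followed both courses. Col5a1 rose early and stayed level, from 45.3, 43.4 and 57.7 CPM in EpiSC to 312, 320 and 384 CPM at D3 (log2 difference 2.80 ± 0.14, edgeR adjusted p = 7e-12), 351 to 390 CPM at D5 and 350 to 529 CPM at D8. It fell to 29.5 to 34.8 CPM in rES and was at 31.4 to 39.0 CPM in ESC. Its partner Col5a2 rose stepwise, with 0, 0.618 and 0.576 CPM in EpiSC, 3.29, 4.19 and 4.29 CPM at D3, 27.8, 30.5 and 34.9 CPM at D5 and 65.5, 121 and 84.1 CPM at D8. The D8 difference of 7.71 ± 0.46 (edgeR adjusted p = 1.41e-10) was the largest of any member described with values against EpiSC. Col5a2 was also higher than EpiSC in rES, at 3.61 to 4.73 CPM (3.32 ± 0.44), and in ESC, at 7.45 to 9.74 CPM (4.31 ± 0.44). The Col5a1 to Col5a2 RPKM ratio was 74.7, 60.3 and 70.6 at D3 and 4.22, 3.45 and 4.01 at D8.

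Col5a3, the third type V chain, peaked at D3 instead, with 10.7, 10.2 and 12.1 CPM against 0.158 to 0.592 CPM in EpiSC (4.87 ± 0.38, edgeR adjusted p = 1.69e-09), and was 1.53 to 2.61 CPM at D5. Col27a1, a fibrillar chain of cartilage, had the same kind of course: 1.16 to 1.62 CPM in EpiSC, 9.56, 9.07 and 14.4 CPM at D3, and 0.98 to 1.96 CPM at D5 (D5 over D3, -2.95 ± 0.30). Col2a1, the main cartilage collagen, was at 15.4, 15.7 and 19.3 CPM in EpiSC and 42.4, 40.7 and 52.9 CPM at D3, then fell to 2.60 to 3.97 CPM at D5 (D5 over D3, -3.68 ± 0.23, edgeR adjusted p = 1.15e-10). It was 4.13 to 5.28 CPM in rES and 2.05 to 3.0 CPM in ESC, and was the only member at 5 CPM or more called higher in rES than in ESC (0.95 ± 0.22). Thus Col2a1, Col5a3 and Col27a1 peaked at D3, while Col3a1 and Col5a2 peaked at D8.

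Col11a1, a chain of the type XI fibrils of cartilage, was the fibrillar member with its highest mean in a naive group. It was at 0.396 to 1.21 CPM in EpiSC, 6.36, 7.11 and 6.45 CPM in rES and 10.2, 9.01 and 9.07 CPM in ESC, with log2 differences of 3.01 ± 0.32 and 3.52 ± 0.32. It also rose at D3, to 2.14 to 3.51 CPM, was back at 0.722 to 0.978 CPM at D5, and stood at 1.86 to 3.24 CPM at D8. The fibrillar genes Col11a2 and Col24a1 stayed under 5 CPM, with group means of at most 0.385 and 1.75 CPM.

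**Figure D4:**
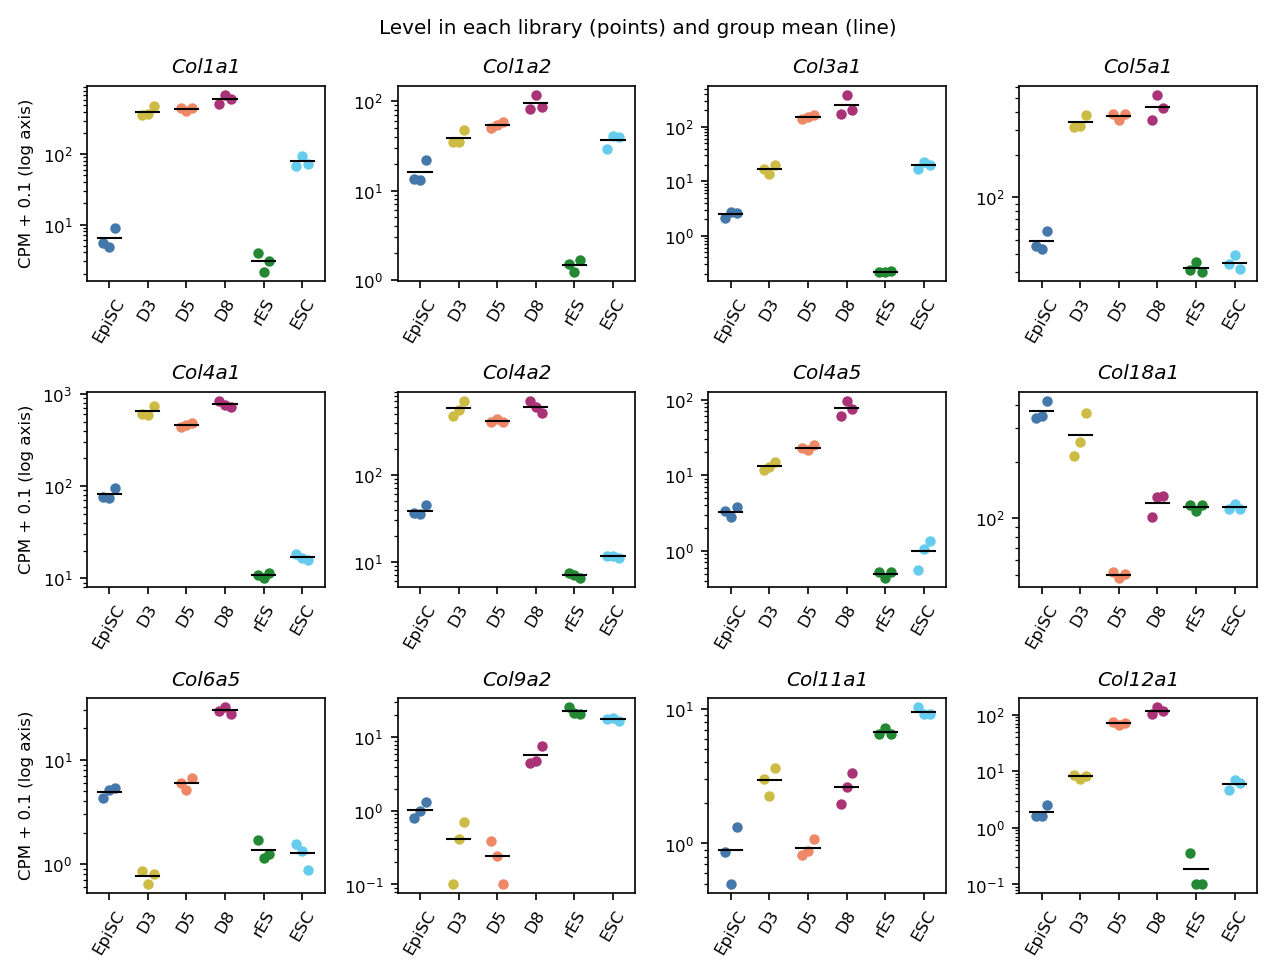
CPM + 0.1 on a log axis in each of 18 libraries (points, 3 per group; line, group mean) for 12 collagen genes. Col1a1, Col5a1, Col4a1 and Col4a2 are near their maximum already at D3, Col3a1 and Col12a1 rise further to D5 and D8, Col18a1 is lowest at D5, and Col9a2 is highest in rES and ESC.

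Relative to EpiSC, but not from D3 to D5, the genes of type IV collagen mostly moved together. Of its 6 genes, 5 were higher than EpiSC at each of D3, D5 and D8 (34%, 37.6% and 42.3% of all genes). The medians were 1.97, 2.67 and 3.84, beside 0.00, 0.02 and 0.18 over all genes. The exception was Col4a4, at 0.505 CPM or less in every library. The D3 call of Col4a3 rested on 1 library with counts, at 0.261 CPM. None was higher in rES or ESC (31.8% and 31.2% of all genes), where 4 and 5 were lower (37.5% and 36% of all genes). The 5 lower in ESC included Col4a4, at 0.0321, 0 and 0.218 CPM in EpiSC and 0 in ESC, near or under the floor. From D3 to D5, 1 type IV gene was higher and 2 were lower (29.9% and 29.5% of all genes). Col4a5 rose by 0.83 ± 0.20, and Col4a1 and Col4a2 changed by -0.50 ± 0.10 and -0.48 ± 0.13. Col4a1, the most widespread chain of basement membranes, was at 75.5, 74.3 and 95.1 CPM in EpiSC, 609, 594 and 742 CPM at D3, 437, 461 and 481 CPM at D5 and 840, 753 and 720 CPM at D8. It was at 10.6, 9.86 and 11.5 CPM in rES and 18.3, 16.4 and 15.7 CPM in ESC. No group overlapped the EpiSC libraries. Log2 differences from EpiSC were 2.99 ± 0.11 at D3, 3.24 ± 0.11 at D8, -2.93 ± 0.11 in rES and -2.28 ± 0.11 in ESC, with edgeR adjusted p values from 5.65e-15 to 1.09e-12.

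Col4a2, whose window above shares its start with that of Col4a1, was at 36.0, 35.1 and 45.2 CPM in EpiSC, 479, 558 and 711 CPM at D3, 408, 438 and 409 CPM at D5 and 704, 605 and 519 CPM at D8. It was at 6.34 to 7.37 CPM in rES and 10.9 to 11.7 CPM in ESC. It rose more than Col4a1 at D3, by 3.91 ± 0.14 (edgeR adjusted p = 6e-14). The Col4a1 to Col4a2 RPKM ratio was 2.04, 2.06 and 2.05 in EpiSC, 1.24, 1.04 and 1.02 at D3, 1.05, 1.02 and 1.15 at D5 and 1.16, 1.21 and 1.35 at D8. It was 1.41, 1.37 and 1.76 in rES and 1.53, 1.37 and 1.40 in ESC. All other libraries lay below the EpiSC ratio, so the head-to-head genes moved in the same direction but not by the same amount. Both genes were lower in rES than in ESC, by log2 differences of -0.66 ± 0.11 and -0.72 ± 0.14.

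The X-linked chains are Col4a5 and Col4a6, of which Col4a5 is the gene affected in X-linked Alport syndrome. Both were already called higher than EpiSC at D3 and, like Col4a1 and Col4a2, had their highest mean at D8. From D5 to D8 they rose by log2 differences of 1.75 ± 0.20 and 1.79 ± 0.33. Those of Col4a1 and Col4a2 were 0.75 ± 0.10 and 0.54 ± 0.13. Col4a5 was at 3.26, 2.66 and 3.66 CPM in EpiSC, 11.5, 12.5 and 14.8 CPM at D3, 22.7, 21.2 and 25.3 CPM at D5 and 61.5, 96.1 and 75.9 CPM at D8 (D8 over EpiSC, 4.59 ± 0.23, edgeR adjusted p = 1.7e-12). It was at 0.330 to 0.429 CPM in rES and 0.450 to 1.26 CPM in ESC, and the call of rES below ESC (-1.12 ± 0.30) was lost without ESC replicate 3 (-0.78, edgeR adjusted p = 0.0698). Col4a6 was at 0.562 to 1.07 CPM in EpiSC, 2.59 to 3.24 CPM at D3, 2.74 to 3.25 CPM at D5 and 9.38, 13.1 and 9.73 CPM at D8. It was listed at 0 in all rES libraries, which against a floor of 12 counts per library made D8 at least 56.3-fold higher. The Col4a5 to Col4a6 RPKM ratio was 4.33 ± 1.36 (SD, n = 3) in EpiSC, 4.66 ± 0.13 at D3 and 7.35 ± 0.64 at D8.

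Col4a3 and Col4a4, the other head-to-head pair, which build the kidney filter's membrane with Col4a5, stayed under 1 CPM in every group mean. Col4a3 was at 0 in all EpiSC and rES libraries and at 1.01, 1.07 and 0.566 CPM at D8. Col4a4 was at 0.505, 0.173 and 0.377 CPM at D8 and did not pass the test there (adjusted p = 0.217).

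**Figure D5:**
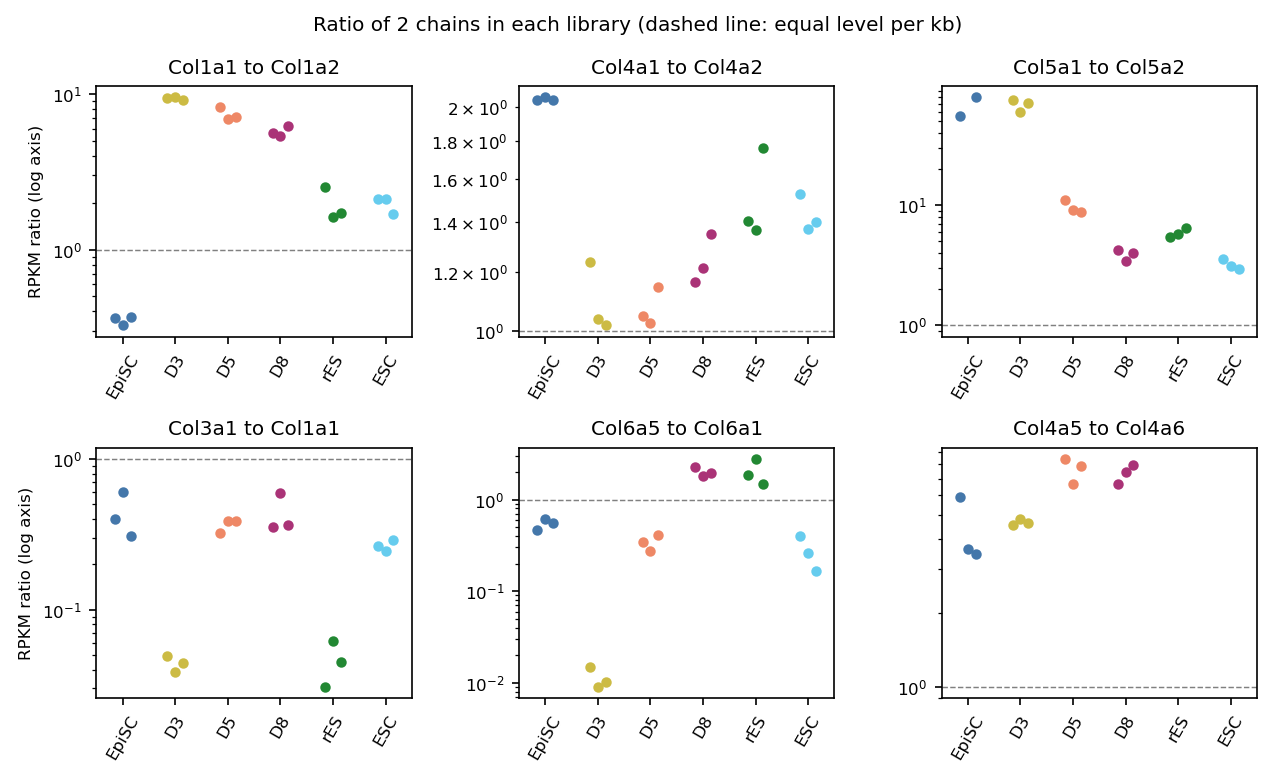
Ratio of RPKM between 2 collagen chains in each library (points, log axis; libraries where a chain was at 0 are left out, and rES and ESC are not drawn for Col4a5 to Col4a6). Col1a1 to Col1a2 goes from under 1 in EpiSC to between 9.17 and 9.52 at D3, and Col4a1 to Col4a2 from about 2.05 in EpiSC towards 1.

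Col18a1, the multiplexin named above, was lower than EpiSC in every other group, at D3, D5 and D8 included. It was at 342, 350 and 419 CPM in EpiSC, 215, 255 and 363 CPM at D3, 52.2, 48.0 and 50.7 CPM at D5 and 102, 129 and 132 CPM at D8. It was at 117, 110 and 117 CPM in rES and 113, 119 and 112 CPM in ESC. EpiSC and D3 overlapped, and the D3 call (-0.42 ± 0.14, edgeR adjusted p = 0.0144) was lost without D3 replicate 1, D3 replicate 2 or EpiSC replicate 3 (adjusted p 0.0657 to 0.0938). The fall to D5 was -2.88 ± 0.15 (edgeR adjusted p = 3.84e-12), and levels in D8, rES and ESC were 1.62 to 1.70 below EpiSC on the log2 scale. The rES and ESC levels differed by a log2 difference of 0.01 ± 0.14. Col15a1, the other multiplexin, had group means of at most 0.459 CPM.

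Among 6 type VI genes, 3 rose and 1 fell at D3 (34% and 30.1% of all genes), and 4 were higher and none lower at D8 (42.3% and 34.4% of all genes). Col6a1 and Col6a2, which with Col6a3 make the classical type VI trimer, peaked at D3. Col6a1 was at 3.53 to 4.19 CPM in EpiSC, 22.1, 26.0 and 30.0 CPM at D3 (2.74 ± 0.20, edgeR adjusted p = 6.3e-10), 7.17 to 7.95 CPM at D5 and 5.81 to 7.84 CPM at D8. Col6a2 was at 3.26 to 3.71 CPM in EpiSC, 9.25, 9.68 and 12.4 CPM at D3 and 2.14 to 2.71 CPM at D5. In rES, Col6a1 was at 0.165 to 0.381 CPM and Col6a2 at 0 to 0.122 CPM, below ESC at 1.60 to 2.10 and 0.867 to 1.51 CPM. Col6a3 peaked later, at 9.78, 7.84 and 8.95 CPM at D5, from 0.0803 to 0.333 CPM in EpiSC, and spread from 1.25 to 6.46 CPM at D8. Its call of D8 below D5 (-1.11 ± 0.44, edgeR adjusted p = 0.0465) was lost with RLE scaling, with DESeq2, without the filter on low counts, with 2 groups in the fit, and in 5 of the 6 fits with a library left out, all but that without D8 replicate 2 (adjusted p over these settings 0.0503 to 0.15).

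Col6a5, one of the chains that can take the place of Col6a3, moved opposite to Col6a1 at D3. It was at 4.16, 4.97 and 5.22 CPM in EpiSC and 0.750, 0.535 and 0.698 CPM at D3 (-2.80 ± 0.23, edgeR adjusted p = 3.63e-09). It was back at 5.95, 5.01 and 6.63 CPM at D5 and reached 29.5, 32.1 and 27.3 CPM at D8 (2.62 ± 0.21 over EpiSC). The Col6a5 to Col6a1 RPKM ratio was 0.00905 to 0.0149 at D3 and 1.80 to 2.23 at D8. Col6a5 was 1.04 to 1.59 CPM in rES and 0.777 to 1.47 CPM in ESC, lower than EpiSC in both, as Col6a1 was.

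Of the FACIT genes, 8 of 9 were tested, and 4 rose and 1 fell at D3 (34% and 30.1% of all genes). Col12a1, a fibril-coating chain of tendon and muscle, was at 1.49 to 2.49 CPM in EpiSC, 8.56, 7.28 and 8.23 CPM at D3, 73.9, 65.4 and 72.5 CPM at D5 and 101, 138 and 115 CPM at D8. The D8 difference from EpiSC was 5.99 ± 0.32 (edgeR adjusted p = 1.91e-11). In rES 2 libraries had no count and 1 had 0.254 CPM, while ESC had 4.62, 6.81 and 6.23 CPM. The D8 over D5 call (0.74 ± 0.25) was lost without D5 replicate 2, D5 replicate 3 or D8 replicate 2 (edgeR adjusted p 0.0525 to 0.0891). Col16a1 peaked at D5, at 6.77, 5.50 and 5.35 CPM, and was 0.814 to 0.927 CPM at D8 (D8 over D5, -2.69 ± 0.39).

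Col9a2, a chain of the type IX collagen that coats cartilage fibrils, had its highest means in rES and ESC, as Col11a1 did. It was at 0.690, 0.887 and 1.23 CPM in EpiSC, 0, 0.321 and 0.613 CPM at D3 and 0.289, 0.147 and 0 CPM at D5. It rose to 4.43, 4.73 and 7.65 CPM at D8 (D8 over D5, 4.99 ± 0.63, edgeR adjusted p = 6.32e-06), 25.9, 21.5 and 21.1 CPM in rES and 17.9, 18.1 and 16.4 CPM in ESC. The log2 differences from EpiSC were 4.56 ± 0.55 in rES and 4.18 ± 0.54 in ESC. The D3 call (-1.47 ± 0.59, edgeR adjusted p = 0.0384) was lost with DESeq2 (adjusted p = 0.121), with 2 groups in the fit (0.15), without the filter on low counts (0.0521) and without D3 replicate 1, D3 replicate 2, EpiSC replicate 2 or EpiSC replicate 3 (0.0612 to 0.118). Col9a2's partners did not share this course: Col9a1 had its highest mean at D3 with 2.07 CPM, and Col9a3 in EpiSC with 1.13 CPM. In rES these partners were at 0.250 and 0.196 CPM.

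The network-forming type VIII chains, known from vessel walls and the cornea, split in time. Col8a1 was at 0.349 to 0.530 CPM in EpiSC, 14.1, 14.2 and 15.2 CPM at D5 and 12.2, 10.4 and 6.93 CPM at D8 (D5 over EpiSC, 4.97 ± 0.29, edgeR adjusted p = 7.73e-11). It was at 0 in all rES libraries, which made D5 at least 76.2-fold higher, and at 1.23 to 2.06 CPM in ESC. Col8a2 peaked at D3, at 3.96, 5.25 and 6.06 CPM, and was at 0 in all ESC libraries, which made D3 at least 27.1-fold higher. The transmembrane Col13a1, found at cell adhesions and the neuromuscular junction, rose stepwise from 0.241 to 0.498 CPM in EpiSC through 1.35 to 2.59 CPM at D3 and 7.64 to 8.26 CPM at D5 to 12.7 to 14.5 CPM at D8 (5.13 ± 0.28). It stayed above EpiSC in rES (1.49 ± 0.26) and ESC (2.37 ± 0.26).

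Col7a1, the anchoring fibril that ties epidermis to dermis, was at 13.5, 15.3 and 21.7 CPM in EpiSC, 22.7, 27.5 and 31.4 CPM at D3, 12.9 to 14.5 CPM at D5 and 5.93 to 7.45 CPM at D8. In the naive groups it was at 0.132 to 0.276 CPM in rES and 0.278 to 0.667 CPM in ESC, log2 differences of -6.09 ± 0.30 and -5.24 ± 0.28 from EpiSC (edgeR adjusted p = 1.58e-12 and 5.41e-12). The small rise at D3 (0.69 ± 0.21) was lost without EpiSC replicate 1 (0.56, edgeR adjusted p = 0.0534). Of the members below 5 CPM, Col22a1 had the highest mean in CPM, 4.76 in rES, and Col23a1 and Col14a1 reached 3.02 CPM at D8 and 2.43 CPM at D5.

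Enzymes that build collagen were listed to set beside the chains. Of 20 folding and modifying enzymes, 13 rose and 4 fell at D3 (34% and 30.1% of all genes), with a median of 0.88. At D8, 9 rose and 5 fell (42.3% and 34.4% of all genes), with a median of 0.03 beside 0.18 over all genes. In ESC, 6 were higher and 10 lower (31.2% and 36% of all genes). The D8 counts and the ESC count higher were near the background. P4hb, a subunit of prolyl 4-hydroxylase and a disulfide isomerase, went from 506 ± 34.5 CPM (SD, n = 3) in EpiSC to 1891 ± 213 CPM at D8. Crtap, part of the prolyl 3-hydroxylation complex, rose from 29.0 ± 2.74 CPM to 90.3 ± 3.27 CPM at D3 and was at 166 ± 2.95 CPM in ESC. Its partner P3h1 rose from 27.2 ± 0.893 to 90.5 ± 3.93 CPM at D3. Fkbp10, a collagen chaperone, fell to 1.21 ± 0.101 CPM in rES and 6.13 ± 0.308 CPM in ESC from 65.6 ± 4.11 CPM.

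Procollagen cleavage genes rose at D3 in 5 of 8 cases with none lower (34% and 30.1% of all genes), and 4 were higher and 4 lower at D8 (42.3% and 34.4% of all genes). Bmp1, which removes the C-terminal propeptide, was at 13.5, 13.2 and 16.5 CPM in EpiSC and 348, 390 and 440 CPM at D3 (4.77 ± 0.14, edgeR adjusted p = 4.4e-15), and 73.2 ± 4.53 CPM at D5. Adamts2, which removes the N-terminal propeptide, came later, at 4.92 ± 1.13 CPM at D3 and 48.8 ± 2.68 CPM at D5. Pcolce, which enhances Bmp1, was highest in ESC at 113 ± 7.29 CPM.

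Among 6 crosslinking genes, 1 rose and 3 fell at D3 (34% and 30.1% of all genes), and 4 rose and 2 fell at D8 (42.3% and 34.4% of all genes). From D8 to rES all 6 fell (38.3% of all genes), with a median of -2.43. Loxl4, a lysyl oxidase, was at 0.459 to 1.51 CPM in EpiSC and 261, 269 and 254 CPM at D3, then 29.3 ± 1.65 CPM at D5. Loxl2, which crosslinks type IV collagen, fell at D3 to 23.0 ± 1.59 CPM and rose to 263 ± 47.1 CPM at D8 from 36.0 ± 3.19 CPM. Pxdn, the peroxidase that forms sulfilimine links in type IV collagen, was at 316 ± 32.5 CPM in EpiSC, 47.0 ± 9.83 CPM at D8 and 8.22 ± 0.825 CPM in ESC. Lox was at 15.1 ± 2.10 CPM in ESC and listed at 0 in rES.

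Of the collagen receptors, 9 of 10 were tested, and 3 rose and 3 fell at D3, shares near the 34% and 30.1% of all genes. The discoidin receptors moved in opposite directions. Ddr1, at 130 ± 6.40 CPM among EpiSC libraries, fell in both naive groups and was 4.53 ± 0.527 CPM in rES and 6.51 ± 2.20 CPM in ESC. Ddr2 was at 0.345 ± 0.300 CPM in EpiSC, 26.4 ± 9.41 CPM at D8, 56.5 ± 3.81 CPM in rES and 22.0 ± 3.07 CPM in ESC. Of 14 degradation genes 12 were tested, and 7 rose and 1 fell at D3 (34% and 30.1% of all genes). Mmp9, a gelatinase, was at 1.28 to 1.81 CPM in EpiSC, 56.4, 64.4 and 69.4 CPM at D3 and 1.05 ± 0.268 CPM at D5. The inhibitors Timp2 and Timp3 rose at D3 to 112 ± 6.10 and 125 ± 11.8 CPM.

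Markers of other cell types also differed between the groups. Of 10 fibroblast markers, 8 were higher and none lower at D3 than in EpiSC (34% and 30.1% of all genes). At D8, 7 were higher and 1 lower (42.3% and 34.4% of all genes). From D3 to D5, 3 were higher and 5 lower (29.9% and 29.5% of all genes). From D5 to D8, 3 were higher and 2 lower (24.9% and 22.1% of all genes). The D3 to D5 count higher and both D5 to D8 counts were near the background. Summed over 10 fibroblast markers, the level was 23.2 to 28.2 CPM in EpiSC, 184 to 229 CPM at D3, 223 to 244 CPM at D5, 285 to 547 CPM at D8, 27.1 to 30.5 CPM in rES and 34.3 to 36.5 CPM in ESC. The highest was D8 replicate 2, which also had the highest fibrillar sum, 1865 CPM against 1193 and 1424 CPM in the other D8 libraries. In rES, Dcn, Fap, Prrx1 and S100a4 were at 0. In ESC none of the 10 was at 0, and 5 were under 1 CPM, against 6 in rES. Of the 10, 4 were lower and none higher in rES than in ESC (17.9% and 15.6% of all genes), and 6 were not called. Summed over 10 primitive and parietal endoderm markers, the level was 318 to 341 CPM in EpiSC, 968 to 1099 CPM at D3, 651 to 664 CPM at D5, 1117 to 1274 CPM at D8, 239 to 244 CPM in rES and 269 to 282 CPM in ESC, most of it Sparc. Of these markers, 9 were higher and none lower than EpiSC at D3 (34% and 30.1% of all genes) and at D8 (42.3% and 34.4%). Gata4 and Gata6, which define the lineage, reached 11.6 and 16.3 CPM at D8. The 10 trophoblast markers summed to 4.29 to 9.22 CPM in EpiSC, 1316 to 1438 CPM at D3 and 828 to 891 at D5. Their sums were 654 to 804 CPM at D8, 170 to 175 CPM in rES and 84.5 to 92.7 CPM in ESC. At each of D3, D5 and D8, all 8 tested were higher than in EpiSC (34%, 37.6% and 42.3% of all genes). At D8, 5 of these 8 were lower and none higher than at D5 (22.1% and 24.9% of all genes). Prl3d1 was at 0 in all groups and Tpbpa at 0 in all but D8. The 8 mesoderm markers summed to 11.5 to 16.3 CPM in EpiSC, 42.7 to 49.9 CPM at D3 and 34.8 to 38.9 at D5. Their sums were 29.2 to 39.1 CPM at D8, 9.06 to 9.76 CPM in rES and 10.6 to 12.6 CPM in ESC. Of 7 tested, 5 were higher and none lower at D3 than in EpiSC (34% and 30.1% of all genes). At D8, 4 were higher and 2 lower (42.3% and 34.4% of all genes). Mesp1 was at 0 at D3, at D5 and in ESC. The part of these cell types in the collagen levels was not tested.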

How the data were processed

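Gene expression was measured in 18 mouse stem cell libraries. Per the labels' protocols, total RNA was depleted of ribosomal RNA and sequenced as paired reads. Per the submitters' processing notes, bcl2fastq, Trim Galore and HISAT2 were used with mm10. Information on the counter, its gene models and its use of strand was not given in the sources used here. Reads of overlapping genes, such as Col4a1 and Col4a2, may be shared. The authors deposited expected counts, whole numbers per symbol whose totals differ between libraries. Whether they were multiplied is not known: low values bunch at multiples of 4.

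The members and gene lists were chosen with earlier results of these data known. Counts were fitted with edgeR 4.0.16 (limma 3.58.1, R 4.3.3): filterByExpr kept 17545 genes, TMM factors were 0.945 to 1.05, and the prior count was 2. All 18 libraries entered 1 fit with 9 comparisons, and p-values were adjusted by Benjamini-Hochberg over all genes at 0.05. SE is approximate, from the log2 difference and the F statistic. Only the edgeR step was tested on simulated counts, for ESC against EpiSC, with changes placed in genes of higher count. Exon lengths came from GENCODE vM21 and promoter windows from RefSeq. Members with a group mean of at least 5 CPM were described with values, others by range, except type IV pairs. In other lists, up to 4 called genes at 5 CPM or more were eligible to be named by size of difference. Over 45 same-number pairs the residual correlation was -0.061 to 0.053, so replicates were taken as unpaired. Alternatives were RLE scaling, no filter, DESeq2 1.42.0, a replicate block, 2 groups only, counts divided by 4 and leaving out each library.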

Additional observations from a re-analysis of the deposited data

How the results depend on the processing

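The counts of collagen members called kept within 1.5 times of their reported values under the alternatives run, except for 2. Members lower at D3 than in EpiSC, 3 as reported, were 1 with only the 2 groups in the fit and 1 to 3 when a library was left out. Members higher in rES than in EpiSC, 10 as reported, were 6 to 9 when a library was left out. Of 2698 single-gene results under alternatives, 2607 kept direction and side of the threshold, 70 lost the call, 21 gained it and none reversed. Scaling by RLE moved the median of all genes by 0.145 in rES and 0.111 in ESC against EpiSC on the log2 scale.

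With the replicate number as a block, 28 members were higher at D3 and 28 at D8 than in EpiSC, and no count of members moved by more than 1.5 times. The labels do not say that replicate numbers pair libraries across groups. Low counts limit members under 1 CPM, whose levels lie near the floor of 12 counts.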
